A study of Mus musculus with 2 samples.

Results

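The 10 genes described here, of 32285 in the counts, encode parts of the taste transduction cascade and of the tuft cell program. They were taken by name: Gnat3, Gnb3, Plcb2, Trpm5, Pou2f3, Ovol3, Avil, Chat, Il25 and Lrmp. The counts came from single-cell RNA sequencing of the whole vomeronasal organ (VNO) of wild-type C57BL/6J male mice at postnatal day 60, with no treatment and no second genotype. For each of 2 droplet libraries the labels name 5 pooled organs. They do not say whether the same animals entered both libraries, and the paper counts 5 male mice in all. The 2 libraries can therefore not be taken as separate sets of animals, and the spread between them may be technical. The libraries held 108005626 and 95442231 unique molecular identifiers (UMIs, the counted molecules), and 10007 and 8698 cells were kept, 18705 of 24084 barcodes. All barcodes were from whole tissue, so each class below is a class of cells inside the same 2 libraries.

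In taste cells, sweet, umami and bitter receptors activate gustducin, a G protein whose alpha subunit is Gnat3 and whose beta and gamma partners include Gnb3 and Gng13. Gustducin beta-gamma activates the phospholipase Plcb2, calcium leaves internal stores through the IP3 receptor Itpr3, and the calcium-gated cation channel Trpm5 depolarizes the cell. Tuft cells, which include the solitary chemosensory cells of the airway and nose, use the same cascade, depend on the transcription factor Pou2f3, and signal to nerves and immune cells through acetylcholine (made by Chat), the cytokine IL-25 and leukotrienes. Vomeronasal sensory neurons (VSNs) signal through other G proteins, Gnai2 in apical and Gnao1 in basal neurons.

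The cells were clustered on the variable genes without the 10 members or any gene of the lists named below, and clusters were named from other markers. A single cluster carried tuft markers. Of its 88 cells, 10 had at least 3 UMIs of the ionocyte factor Ascl3 and were set apart as ionocyte-like, leaving 78 tuft-like cells, 43 in library 1 and 35 in library 2. In these 78 cells 9 of 12 tuft markers were above their level in all other cells, among them Rgs21 (69 cells), Ly6g6f (67), Spib (54), Bmx (53), Rgs13 (50) and Sh2d6 (41). The markers went against the name in 3 cases: Dclk1 and Gfi1b had no UMI in any of the 78 cells, and Alox5ap stood at 14.1 CPM (UMIs of a gene per 1000000 UMIs of the class) against 86.0 CPM elsewhere. Of the 8 mature VSN markers, Calm2 was in all 78 cells (1653 CPM against 996 CPM elsewhere) and Gnai2 in 77 (452 against 969 CPM), while Omp was in 3 and each of the others in at most 5. The 6 macrophage markers were in at most 8 cells each, with Adgre1 in 0. Of the 6 ciliated markers Tppp3 was in 24 cells (27.3 against 31.1 CPM) and the others in at most 6, and the ionocyte markers were in at most 7, with Ascl3 in 1. No tuft-like cell was called a doublet.

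The tuft-like cells had a median of 14268.5 UMIs, against 18401 in 2225 mature VSN-like cells, 2474.5 in 4374 immune cells and 4847 in 1032 endothelial-like cells, which served as the background for shares of cells. A median of 6.84% of their UMIs was mitochondrial. Only 7 of the 78 passed a limit of 5%, against 56.6% of all cells at up to 10%, and at 5% no tuft-like cluster formed. Cells at up to 10% mitochondrial UMIs are therefore described, a choice made after this was seen. A further cluster of 697 cells, 693 of them in library 1, had a median of 2033 UMIs, met no marker list and stayed unnamed. It held low counts of several members, is described on its own, and enters none of the tested groups. In 33 cases the same barcode occurred in both libraries, 18 of them among kept cells.

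**Figure D1:**
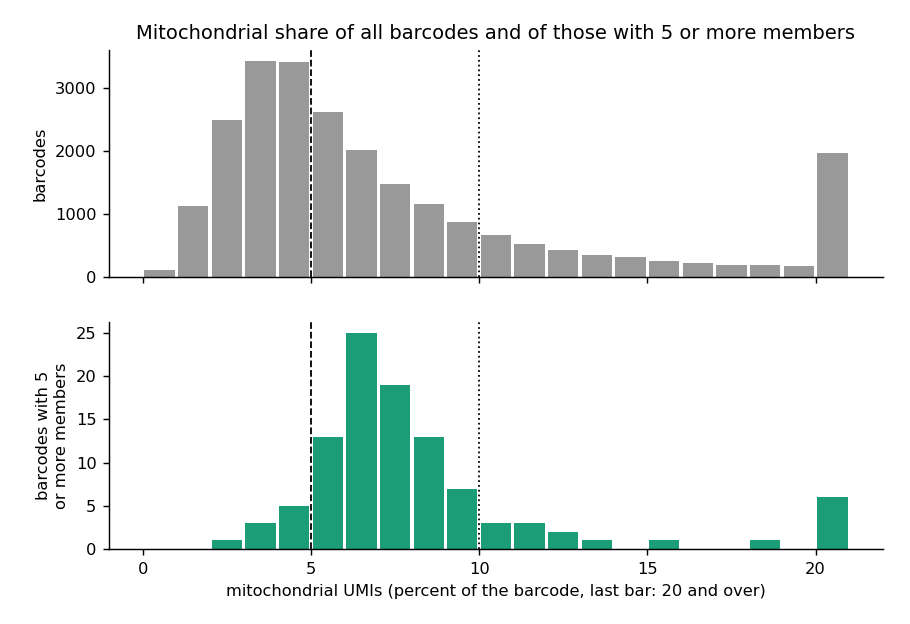
Number of barcodes (upper panel) and of barcodes with UMIs of 5 or more members (lower panel) by percent of UMIs that were mitochondrial, all 24084 barcodes of both libraries, with lines at 5% (dashed) and 10% (dotted). Barcodes with 5 or more members were most frequent between 6% and 7%, where 25 lay, while all barcodes were most frequent between 3% and 4%.

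All 10 members were counted in tuft-like cells in both libraries, and the subunits of gustducin were found in nearly every one of them. Gnat3 (ENSMUSG00000028777, chromosome 5, 17962549 to 18019834, plus strand, GRCm38), the gustducin alpha subunit, was counted in 76 of 78 cells (97.4%, exact 95% binomial interval 91.04 to 99.7%; such intervals cover counting error only). Its level was 3264 CPM in library 1 and 2879 CPM in library 2, with a median of 43 and at most 126 UMIs per cell. Gnb3 (ENSMUSG00000023439, chromosome 6, 124834240 to 124840275, minus strand), the beta subunit, was likewise counted in 76 cells, at 2605 and 2428 CPM. For both subunits the libraries lay close together, and only 2 cells each were without a UMI.

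The effectors of the cascade were found in fewer cells. Plcb2 (ENSMUSG00000040061, chromosome 2, 118707517 to 118728438, minus strand), the phospholipase, was counted in 53 of 78 cells (67.9%, 56.4 to 78.1%), at 192 and 117 CPM. Trpm5 (ENSMUSG00000009246, chromosome 7, 143069153 to 143094642, minus strand), the cation channel, was counted in 74 cells (94.9%), at 339 and 364 CPM. With each cell thinned to 2000 UMIs, Gnat3 remained in 88.2% of 76 cells, Trpm5 in 52.6% and Plcb2 in 25%, so the lower shares of Trpm5 and Plcb2 depended on depth. Trpm5 overlaps Tssc4, which lies on the opposite strand, and no source used here says if the counting took strand into account.

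The transcription factors were present in most tuft-like cells. Pou2f3 (ENSMUSG00000032015, chromosome 9, 43123939 to 43210369, minus strand), a POU domain factor required for tuft cells, was counted in 67 of 78 cells (85.9%, 76.2 to 92.7%), at 152 and 164 CPM and at most 7 UMIs per cell. Ovol3 (ENSMUSG00000100512, chromosome 7, 30233439 to 30235725, minus strand), a zinc finger gene of the Ovo family, was counted in 76 cells, at 1449 CPM in library 1 and 950.3 CPM in library 2. The level of Pou2f3 was the same in both libraries within 10%, while that of Ovol3 was 1.52 times higher in library 1.

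The family of Pou2f3 binds the octamer ATGCAAAT. Over all cells, 46 of the 58 with Chat, 71 of the 108 with Trpm5 and 71 of the 144 with Avil also held Pou2f3. So did 72 of the 212 with Ovol3, 70 of the 242 with Gnat3 and 51 of the 1130 with Plcb2. Promoter windows, from 250 bases before to 50 after the start site, were found for 6 of the 10 members in RefSeq (GRCm38.p6): Gnat3, Trpm5, Plcb2, Ovol3, Avil and Chat. The octamer and its first and last 7 letters, ATGCAAA and TGCAAAT, were searched on both strands, a choice made after the sequences had been seen. The whole octamer was in none of the 6 and in 1.75% of 32544 promoters of the same length. The windows of Avil and Chat are shown because they were the only ones of the 6 with a 7-letter match. Capitals mark the matches, 2 of ATGCAAA in Avil (chr10:127000459-127000758, plus strand; the first match reads on the minus strand) and 1 of TGCAAAT in Chat (chr14:32465860-32466159, minus strand).
Avil: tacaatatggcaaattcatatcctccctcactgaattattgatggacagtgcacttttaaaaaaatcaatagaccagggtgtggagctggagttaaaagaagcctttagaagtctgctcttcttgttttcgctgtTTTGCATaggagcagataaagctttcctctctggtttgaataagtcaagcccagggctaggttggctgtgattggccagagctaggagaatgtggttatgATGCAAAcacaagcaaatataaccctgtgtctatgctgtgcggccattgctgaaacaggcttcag
Chat: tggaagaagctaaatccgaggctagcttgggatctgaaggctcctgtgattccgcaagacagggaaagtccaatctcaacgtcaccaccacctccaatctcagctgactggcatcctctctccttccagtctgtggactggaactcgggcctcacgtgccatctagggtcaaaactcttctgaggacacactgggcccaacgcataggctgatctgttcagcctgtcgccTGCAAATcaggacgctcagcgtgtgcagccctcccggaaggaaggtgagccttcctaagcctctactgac

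ATGCAAA occurs in 4.65% of promoters, TGCAAAT in 4.04% and either in 6.84%. The windows of Gnat3, Trpm5, Plcb2 and Ovol3 held no match. That of Ovol3 (chr7:30236716-30237015, minus strand) lies wholly before the gene as positioned above (30233439 to 30235725). It is therefore set on another start site, and the annotated start given above was not searched. A match describes the letters only and is no evidence of binding.

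Avil (ENSMUSG00000025432, chromosome 10, 127000709 to 127020994, plus strand) encodes advillin, an actin-bundling protein of the villin family found in tuft cells and sensory neurons. It was counted in 76 of 78 tuft-like cells, at 425 and 402 CPM. Chat (ENSMUSG00000021919, chromosome 14, 32408203 to 32465989, minus strand), choline acetyltransferase, was counted in 49 cells (62.8%, 51.1 to 73.5%), at 78.1 and 78.7 CPM and at most 6 UMIs per cell. The Chat locus contains Slc18a3, the vesicular acetylcholine transporter, on the same strand. Slc18a3 had 3 UMIs in tuft-like cells, all in library 1.

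Il25 and Lrmp were at opposite ends of the range of shares. Il25 (ENSMUSG00000040770, chromosome 14, 54932695 to 54935837, plus strand), the epithelial cytokine IL-25, was counted in 22 of 78 cells (28.2%, 18.6 to 39.5%). It was the member on which the libraries differed most, with 15 of 43 cells and 177 CPM in library 1 and 7 of 35 cells and 40.4 CPM in library 2. The counts lay mostly in few cells. Of the 118 Il25 UMIs of library 1, single cells held 31, 27, 16 and 11, while no cell of library 2 held more than 8. Lrmp (ENSMUSG00000030263, chromosome 6, 145115653 to 145174934, plus strand), a membrane protein of the endoplasmic reticulum first described in lymphocytes, was counted in all 78 cells with 2 to 115 UMIs, at 2848 and 2485 CPM.

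**Figure D2:**
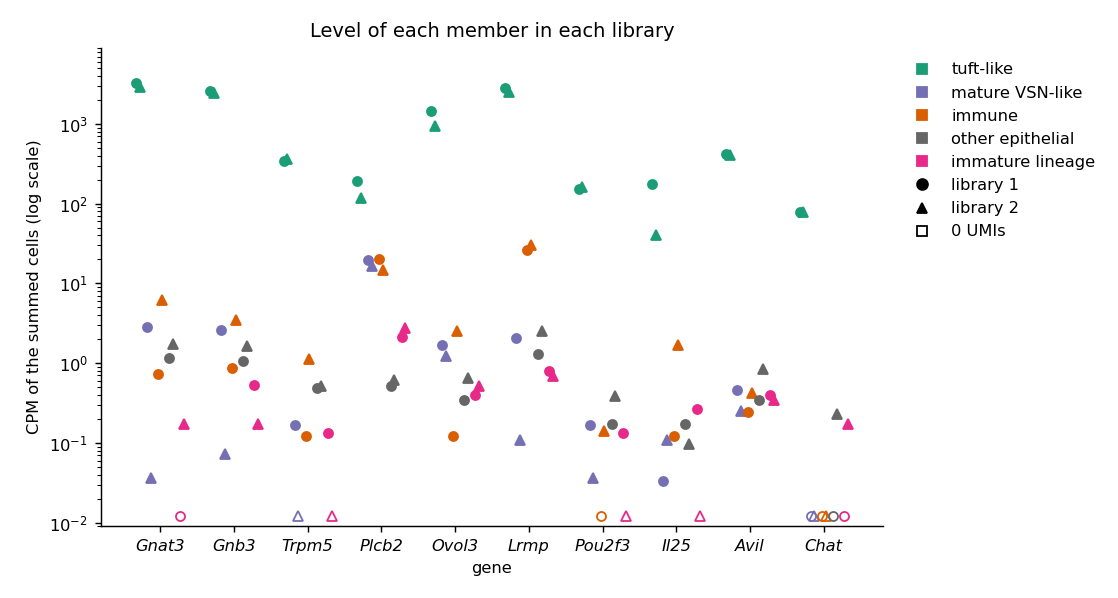
Level of each member in CPM (log scale) in the summed cells of 5 groups, with library 1 as circles and library 2 as triangles, and open symbols at the bottom edge for sums with 0 UMIs. For every member the tuft-like sums of both libraries lie above all other sums, by least for Plcb2.

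Each member was higher in tuft-like cells than in mature VSN-like, immune and other epithelial cells. UMIs were summed per library and group and compared, 2 sums against 2, by the quasi-likelihood test of edgeR, with p-values adjusted after Benjamini and Hochberg. The groups were made from the same cells by clusters that did not use the members, and the p-values measure the spread between 2 libraries only. The members are tuft genes chosen with earlier results of these data known, and the class was named by other tuft markers. Higher levels there were thus foreseeable, and the shares of all genes are given for scale only. Against mature VSN-like cells 10 of 10 members were higher, where 14.5% of 16532 genes were. The smallest difference was that of Plcb2 (log2 fold change 3.13 ± 0.23 SE, adjusted p = 1.74e-07), and the others ranged from 9.68 (Ovol3) to 11.85 (Trpm5), with Gnat3 at 11 ± 0.63 (adjusted p = 1.64e-08). Chat had no UMI in VSN-like cells and was at least 1509-fold higher in tuft-like cells, the bound set by 3 UMIs over the group. For 4 of the 10, Trpm5, Pou2f3, Il25 and Chat, the VSN-like cells alone were under the minimum of 10 UMIs, so that these passed it through the tuft-like cells and had to differ. Of the 87 Gnat3 UMIs of VSN-like cells 84 lay in a single cell described below, and without the 10 cells of that kind Lrmp was 13.72 higher and Gnb3 14.70, the latter against 5 UMIs, while Gnat3 was left with 3 UMIs and Trpm5 with 0 in VSN-like cells. With either library alone there is 1 sum per group and no test; Plcb2 was then 2.81 higher in library 2. Values for a single library are plain log2 ratios of CPM, without a fit or TMM factors. The VSN-like cells of library 2 held 1 Gnat3 UMI, 2 of Gnb3, 3 of Lrmp and 3 of Il25. The ratios there (16.29, 15.04, 14.49 and 8.55) rest on those few UMIs. In library 1 the ratios were 10.15, 9.95, 10.43 and 12.38, the last on 1 UMI.

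Against immune cells 10 of 10 members were again higher, where 18.6% of 14262 genes were. Plcb2 (2.57 ± 0.24, adjusted p = 4.01e-09) and Lrmp (5.95 ± 0.18, adjusted p = 4.96e-17) differed least. Il25 followed at 6.43, the other members ranged from 8.52 to 10.07, and Chat was at least 398.9-fold higher. Without the 10 cells described below Gnat3 was 11.82 and Gnb3 11.53 higher, against 8 UMIs each in immune cells, and Ovol3, Trpm5 and Il25 were left with 3 UMIs or fewer there. For 4 members against immune cells and 2 against other epithelial cells, the compared group alone was under the minimum of 10 UMIs. Against other epithelial cells, a sum of 5764 basal, sustentacular, non-sensory, gland and ciliated cells, 10 of 10 were higher by 7.73 (Plcb2) to 10.86 (Ovol3), where 10.6% of 16654 genes were higher. Of the alternatives that could be tested, the 5% mitochondrial limit with the same classes ended a call, that of Il25 against immune cells (3.36, adjusted p = 0.137), with 7 tuft-like cells left. The difference of Il25 from immune cells was 4.59 without library 1 and 10.49 without library 2.

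The members shared cells. The tuft-like cells held UMIs of a median of 8.5 members, and 12 of the 78 held all 10. All 78 held at least 3 members and 76 at least 5. Of all 18705 cells, 127 held 3 or more members, 86 in library 1 and 41 in library 2. The 127 comprised the 78 tuft-like cells, 38 cells of the unnamed library 1 cluster and 11 cells elsewhere. In mature VSN-like cells 2 of 2225 and in immune cells 1 of 4374 held 3 or more.

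**Figure D3:**
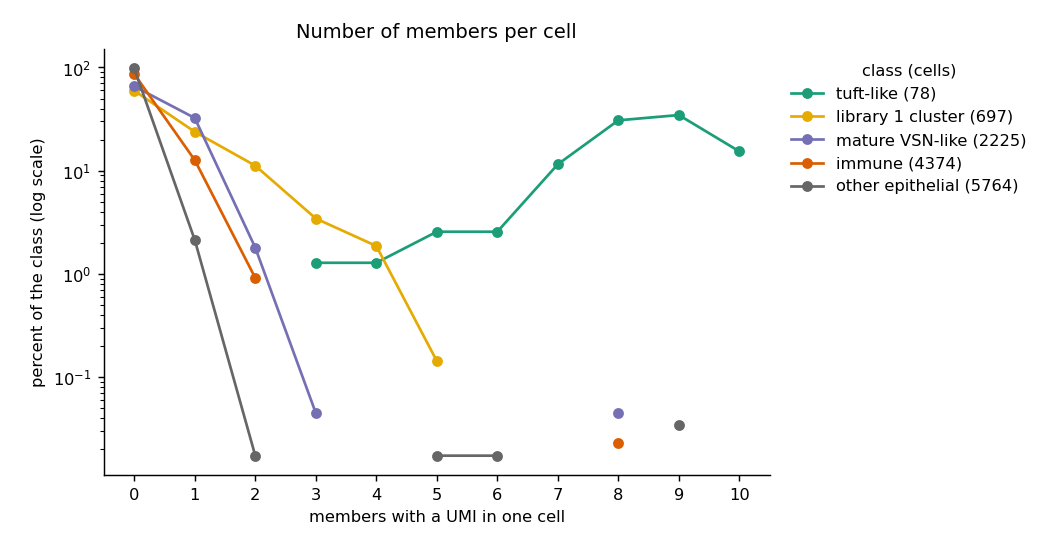
Percent of the cells of each class (log scale) by number of members with a UMI in the cell, both libraries together. Tuft-like cells hold 3 to 10 members with a peak at 9, while other classes fall from 0 members on, apart from single cells at 5 to 9; points at 0% are not drawn.

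In tuft-like cells nearly every pair of the widely counted members was found together. Gnat3 and Gnb3 were both counted in 74 of 78 cells, Gnat3 and Avil in 75, and Trpm5 and Ovol3 in 74. All 53 cells with Plcb2, all 49 with Chat and all 22 with Il25 also held Gnat3. Chat and Il25, the outputs, were counted together in 16 cells, 72.7% of the 22 with Il25 and 32.7% of the 49 with Chat.

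Over all 18705 cells the pairs differed widely in their overlap. The Jaccard index, cells with both genes over cells with either, was highest for Trpm5 and Pou2f3 (0.573, 71 cells with both), followed by Trpm5 and Avil (0.465) and Pou2f3 and Chat (0.465). Gnat3 and Gnb3 reached 0.370, with 122 cells holding both. Pairs with Plcb2 ranged from 0.019 to 0.072, and of the 1130 cells with Plcb2 53 were tuft-like. The order depended on depth: with each cell thinned to 2000 UMIs Gnb3 and Ovol3 came first (0.474), Gnat3 and Gnb3 had 0.441, and Trpm5 and Pou2f3 had 0.339. These values describe cells of 2 libraries that differ in depth and are not tests.

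The other cells with many members were few and single. Of the 10 cells outside the tuft-like class with 5 or more members, 3 were ciliated-like, 2 lay in an unnamed cluster led by Lcn2, and the gland-like, endothelial-like, macrophage-like, apical VSN-like and library 1 clusters had 1 each. The apical VSN-like cell, in library 1, held 8 members with 84 Gnat3, 76 Gnb3 and 54 Lrmp UMIs. The macrophage-like cell, in library 2, held 8 members with 42 Gnat3 and 12 Il25 UMIs. The counts named for these cells are within the range of single tuft-like cells, and none of the 10 was called a doublet. Each of the 10 had more UMIs than the median cell of its class. The apical VSN-like cell had 25058 UMIs against a median of 13572, and the macrophage-like cell 19771 against 3024. Whether any of them holds a mixture of cells was not tested beyond the doublet calls. The 10 cells carry most of the UMIs of some members in their classes, so results for neurons and immune cells are given with and without them.

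The unnamed library 1 cluster held the same genes at low counts. Its leading genes were Spp1, Vmn2r31, Lcn11, H2-M10.4, Vmn1r207-ps, Vmn1r87, Vmn1r84, Vmn2r96, Vmn1r235 and Vmn1r21. Most of these are vomeronasal receptor genes, and Lcn11 is also a gland marker, so the members were counted here beside genes of other classes. Gnat3 was counted in 135 of its 697 cells (19.4%) with at most 4 UMIs per cell, Lrmp in 19.7%, Gnb3 in 12.3% and Ovol3 in 5.45%. Pou2f3 and Il25 were counted in 1 cell each. Tuft-like cells of library 1 were above the cluster by 15.8-fold for Plcb2, 33.5-fold for Lrmp, 40.1-fold for Gnat3 and 78.5-fold for Ovol3. Of the tuft markers Rgs21 was counted in 3.87% of its cells. The cluster held 135 of the 242 cells with Gnat3 but 4.57% of the Gnat3 UMIs, whereas tuft-like cells held 89.2%. Only 4 of its cells came from library 2, so that this cluster and library 1 cannot be told apart.

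**Figure D4:**
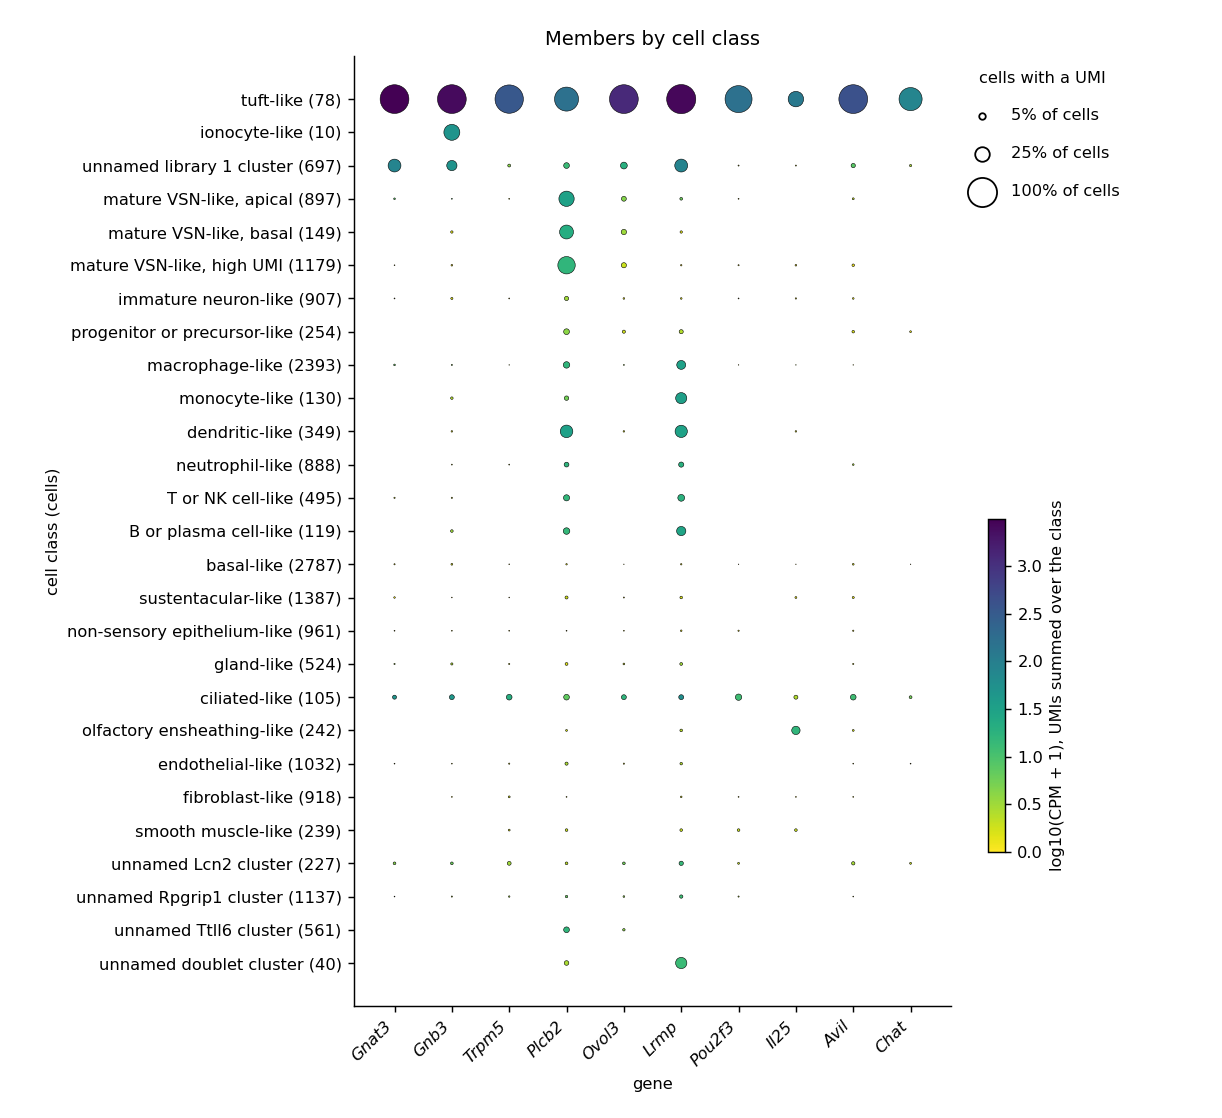
Share of cells with a UMI (circle area) and level (color, log10 of CPM plus 1 over the summed cells) of each member in each class, with the number of cells in parentheses. All 10 columns are filled in the tuft-like row, and outside it the largest circles are Plcb2 in mature VSN-like and dendritic-like cells, Gnat3 and Lrmp in the unnamed library 1 cluster, Lrmp in dendritic-like cells, and Gnb3 in the 10 ionocyte-like cells.

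Among the members Plcb2 was the one widely counted in sensory neurons. It was counted in 702 of 2225 mature VSN-like cells (31.6%, 29.6 to 33.5%), in 33.1% of them in library 1 and 29.8% in library 2, at 19.6 and 16.6 CPM. These cells held 63.6% of all Plcb2 UMIs, against 11.1% in tuft-like cells. In endothelial-like cells 1.16% had a UMI, and with each cell thinned to 2000 UMIs the shares were 4.55% in mature VSN-like and 0.355% in endothelial-like cells. All kinds of mature VSN-like cells had it: 27.5% of 897 apical cells (29.8 CPM), 22.8% of 149 basal cells (20.6 CPM) and 35.7% of 1179 cells of a mature cluster with high UMI counts, a median of 35803 (14.9 CPM). The levels of apical (33.8 and 25.1 CPM by library) and basal cells (13.7 and 28.2 CPM) overlapped.

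Plcb2 was lower in the immature lineage. Among 907 immature neuron-like cells 2.09% had a UMI, and among 254 progenitor or precursor-like cells 3.94%, at 2.14 and 2.79 CPM by library for both together. The difference from mature VSN-like cells passed the test (log2 fold change -2.99 ± 0.22, adjusted p = 2.4e-05). Ovol3 was lower as well (-1.77 ± 0.48, adjusted p = 0.0156, and 0.116 by DESeq2), at 0.402 and 0.523 CPM against 1.70 and 1.22 CPM. Without library 1 the values were -2.58 for Plcb2 and -1.23 for Ovol3. Thus 2 of the 6 members that could be tested were lower and none higher, where 27.9% of 17192 genes were lower. Of the 6, 4 passed the minimum of 10 UMIs through the VSN-like cells alone. Ovol3, with 6 UMIs in the immature lineage, was 1 of these. With library as a block, since sums of the same library deviated together, 4 were lower, adding Gnat3 (-4.35, adjusted p = 0.00699) and Gnb3 (-2.04, adjusted p = 0.0186), of whose VSN-like UMIs 84 of 87 and 76 of 81 lay in 1 cell.

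Ovol3 was the other member found in neurons, at a low level. It was counted in 67 of 2225 mature VSN-like cells (3.01%, 2.34 to 3.81%), at 2.92% and 3.11% by library, with 1 or 2 UMIs in all but the apical cell with many members. In endothelial-like cells 0.194% had a UMI. Ovol3 and Plcb2 were counted together in 27 of the 67 cells. The share of Ovol3 fell to 0.45% with each cell thinned to 2000 UMIs.

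The remaining members were counted in few sensory neurons. Of 2225 mature VSN-like cells, Gnat3 was counted in 4, Gnb3 in 6, Trpm5 in 1, Pou2f3 in 3, Il25 in 4, Lrmp in 12 and Avil in 13. The single apical cell with many members held 84 of the 87 Gnat3 UMIs, 76 of 81 of Gnb3, 54 of 65 of Lrmp and all 5 of Trpm5. Chat was found in 0 of 2225 cells, for which 3 counts set a limit of 0.135% on cells with a Chat UMI, not on cells that express it. Without the single cell, Gnat3 stood at 0.052 CPM in mature VSN-like cells, against 3104 CPM in tuft-like cells.

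In immune cells Lrmp was the most widely counted member. It was found in 373 of 4374 cells (8.53%, 7.72 to 9.39%), 8.30% in library 1 and 8.78% in library 2, at 25.9 and 30.6 CPM, and in 0.775% of endothelial-like cells, which were deeper. The shares were 17.8% of 349 dendritic-like, 14.6% of 130 monocyte-like, 10.1% of 119 B or plasma cell-like, 9.402% of 2393 macrophage-like, 5.45% of 495 T or NK cell-like and 3.15% of 888 neutrophil-like cells. By level, each class overlapped the next across libraries in the order monocyte-like (37.0 and 27.3 CPM), macrophage-like, dendritic-like, B or plasma cell-like, neutrophil-like and T or NK cell-like (16.5 and 17.8 CPM), while the first and the last did not overlap. Immune cells thus held 373 of the 678 cells with Lrmp but 10.8% of its UMIs, with mostly 1 UMI per cell.

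Plcb2 was the second member in immune cells, in 238 of 4374 (5.44%, 4.79 to 6.16%). Dendritic-like cells had the highest share, 18.6%, and the highest level, 31.5 CPM (34.99 and 27.1 CPM by library), which overlapped that of apical VSN-like cells. The share was 4.93% of macrophage-like, 4.44% of T or NK cell-like, 2.70% of neutrophil-like and 2.31% of monocyte-like cells. In B or plasma cell-like cells all 6 cells with Plcb2 came from library 2. Lrmp and Plcb2 were counted together in 39 immune cells, 10.5% of those with Lrmp and 16.4% of those with Plcb2.

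Chat was found in 0 of 4374 immune cells, for which 3 counts set a limit of 0.069% on cells with a Chat UMI; at a median of 2474.5 UMIs a cell that expresses Chat may show none. Each of the other members was in at most 9. The macrophage-like cell with many members held 42 of 50 Gnat3 UMIs, 16 of 19 Ovol3 UMIs and 12 of 13 Il25 UMIs of all immune cells.

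Compared directly with mature VSN-like cells, immune cells were higher in Lrmp (5.19 ± 0.58, adjusted p = 3.97e-05), and in all 4 of 8 tested members were called higher, where 33.7% of 17427 genes were (73% in either direction). The calls for Trpm5 (3.23, adjusted p = 0.0421) and Il25 (4.05, adjusted p = 0.00944) rested on the macrophage-like cell, which held 8 of 9 and 12 of 13 UMIs. Il25 also passed the minimum of 10 UMIs through the immune cells alone. The call for Plcb2 (0.49 ± 0.18, adjusted p = 0.0388) depended on scaling: at 19.9 and 14.7 CPM in immune and 19.6 and 16.6 CPM in mature VSN-like cells the levels overlapped, and with total counts in place of TMM factors the log2 fold change was -0.06 (adjusted p = 0.757). Without library 1 it was -0.18, and without library 2 Trpm5 was -0.44, Il25 1.88 and Lrmp 3.64. That scaling moved the median of all genes from -0.19 to -0.74. Without the 10 cells with many members Lrmp was 7.65 higher (adjusted p = 1.33e-08), Gnat3 (3.71, adjusted p = 0.00692) and Gnb3 (3.04, adjusted p = 0.0204) became higher at 0.524 CPM each in immune cells, and Ovol3 was lower (-2.02, adjusted p = 0.0146). With library as a block, 6 were called, adding Gnat3 (1.93, adjusted p = 0.000611) and Gnb3 (1.45, adjusted p = 0.0106).

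Il25 was counted in a second class, the olfactory ensheathing-like glia. There 20 of 242 cells had a UMI (8.26%, 5.12 to 12.5%), 9.402% in library 1 and 7.20% in library 2, against 0 of 1032 endothelial-like cells (limit 0.291%). No cell had more than 2 UMIs, and the level was 17.2 and 13.6 CPM. None of these 20 cells held another member, whereas all 22 tuft-like cells with Il25 did.

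The gene next to Il25, named after its values had been seen, was counted in the same glia. Cmtm5, a gene expressed in myelinating and ensheathing glia, starts 423 bases past the annotated end of Il25 on the same strand. It was counted in 192 of 242 ensheathing-like cells (669 CPM) and in 1 of 78 tuft-like cells. Of the 20 ensheathing-like cells with Il25, 19 held Cmtm5, with a mean of 9.5 UMIs against 3.47 in those without Il25. Its part in the Il25 counts of these glia was not tested.

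Among tuft-like cells the members of the cascade varied together. The correlation of Gnat3 and Gnb3 across the 78 cells was r = 0.754 (0.808 in library 1 and 0.713 in library 2). It was taken on the logarithm of 1 plus the UMIs per 10000 of the cell. The same holds for the values below. The correlation of Gnat3 was 0.531 with Plcb2, 0.504 with Avil and 0.443 with Trpm5. It was 0.336 with Lrmp, 0.179 with Ovol3 (0.153 and 0.207 by library) and 0.074 with Pou2f3 (-0.042 and 0.237). For Gnb3 the libraries differed more, with 0.05 and 0.683 for Ovol3 and 0.049 and 0.469 for Pou2f3. The low values were thus not the same in both libraries. Pou2f3 had a median of 2 UMIs per cell against 43 for Gnat3, and such low counts limit a correlation. The highest values were those of Rgs21, a regulator of G protein signaling found in taste cells, with Gnat3 (0.802) and Gnb3 (0.804). The cells share 2 libraries and their totals, so these are descriptions.

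Rgs21 was missing in 9 tuft-like cells, 5 in library 1 and 4 in library 2, with about the same depth as the other 69 (median 14377 and 14226 UMIs). Gnat3 stood at 448 CPM in these 9 and 3439 CPM in the 69, Gnb3 at 181 and 2828 CPM, and Plcb2 was counted in 1 of 9 and 52 of 69. Lrmp (2592 and 2711 CPM), Pou2f3 (149 and 158 CPM) and Ovol3 (911 and 1284 CPM) differed less. The other way round, Rgs13 stood at 212 CPM in the 9 and 129.8 CPM in the 69, and Spib at 181 and 94.1 CPM. The cells were divided by their own counts, so this is a description with no test.

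**Figure D5:**
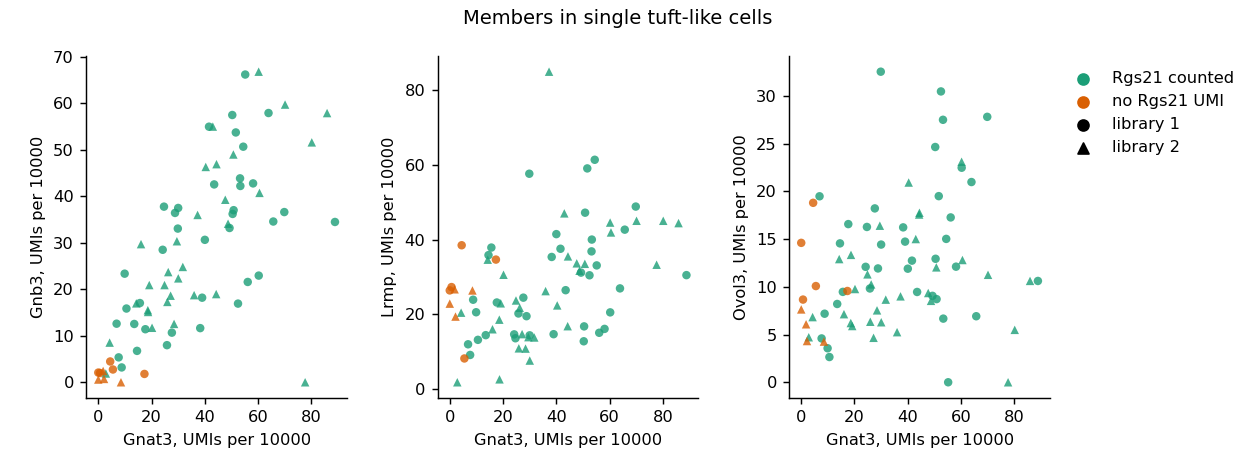
Gnb3, Lrmp and Ovol3 against Gnat3 in the 78 tuft-like cells, in UMIs per 10000 UMIs of the cell, with library 1 as circles, library 2 as triangles, and the 9 cells without an Rgs21 UMI in orange. The 9 cells lie at the low end of Gnat3 and Gnb3 but within the range of the others for Lrmp and Ovol3.

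The genes whose detection was most like that of the members were searched among all others with UMIs in at least 20 cells, by the Jaccard index over 18705 cells. Rgs21, Ly6g6f and the unnamed transcript 1810046K07Rik were the 3 nearest genes to Gnat3 (0.335, 0.300 and 0.299), Gnb3, Trpm5, Ovol3 and Avil, with 0.627 for 1810046K07Rik and Trpm5 the highest of these. 1810046K07Rik was also nearest to Pou2f3 (0.629), Chat (0.479) and Il25 (0.185), and Cryba2 was among the nearest 3 for Pou2f3 (0.520) and Chat (0.429). Plcb2 had other neighbors, the neuroendocrine genes Nap1l5 (0.254), Scgn (0.245) and Chgb (0.244). Lrmp was nearest to Hepacam2 (0.144) and Ppfia4 (0.132).

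Several other genes of the taste cascade were counted in tuft-like cells, and others were at or near 0. Of 22 tested genes of a taste transduction list, 15 were higher and 4 lower in tuft-like than in mature VSN-like cells, where 14.5% of all genes were higher and 22% lower. The minimum of 10 UMIs fixed part of this count: 8 of the 15 passed it through the tuft-like cells alone and all 4 of the lower genes through the VSN-like cells alone. Of the 6 that reached it in both groups 6 were higher. Gng13, the gamma subunit of gustducin, was in all 78 cells at 4792 and 4184 CPM and in mature VSN-like cells at 854 and 783 CPM (2.46 ± 0.15, adjusted p = 3.35e-08). Itpr3, the calcium release channel, was in 91.03% at 252 and 270 CPM (5.42 ± 0.16, adjusted p = 3.11e-11). Of those named by fitted change, the bitter receptor Tas2r108 was at least 1374-fold higher, Tas2r118 and Tas2r137 each at least 187-fold higher on 11 UMIs, and the sodium channel Scn9a at least 41.9-fold lower with no UMI in tuft-like cells. Tas2r105 (10.14 ± 0.41) and Tas1r1 (9.88 ± 0.61) had UMIs in both groups. Kcnk5, Tas1r2 and Tas2r143 had no UMI in tuft-like cells either, Pde1a and Entpd2 had 1 each, and Calhm1, Calhm3 and Pkd2l1, of the release and sour pathways of taste cells, had UMIs in fewer than 3 barcodes. Against immune cells 14 of 21 were higher and 0 lower, 11 of the 14 through the tuft-like cells alone (all genes 18.6% and 27.4%), with Tas2r105 at least 1313-fold higher. Against other epithelial cells 14 of 22 were higher, 8 of them through the tuft-like cells alone, and 4 lower (all genes 10.6% and 16.3%). These 4 passed the minimum through the other epithelial cells alone. Gng13, Itpr3, the genes at or near 0 other than Scn9a, and the receptors below, other than Tas2r105 and Tas2r108, were named after their values had been seen.

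Bitter and umami receptors were counted in the same tuft-like cells. Of 17 Tas2r genes with UMIs in at least 3 barcodes, 16 had UMIs in tuft-like cells, which held 535 of 631 Tas2r UMIs. Tas2r105 was in 46 of 78 cells (204 and 334 CPM) and Tas2r108 in 40 (75.1 and 65.9 CPM). Any Tas2r gene was in 65 cells, 36 of 43 in library 1 and 29 of 35 in library 2, and 42 cells held 2 or more. The umami receptor subunits Tas1r1 and Tas1r3 were in 33 and 38 cells and together in 18, and Tas1r2, the sweet receptor subunit, in none. A subunit of the umami receptor and a Tas2r gene were together in 51 cells. The 11 cells with none of these receptors had a median of 6 Gnat3 UMIs, and their median depth was 14377 UMIs. Reads of near-identical Tas2r copies may be split between genes or dropped, so counts of single receptors are uncertain.

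Of the genes of lipid mediator synthesis, Alox5 and Ltc4s were higher in tuft-like cells than in each of the 3 compared groups. Of 10 eicosanoid genes 6 were higher and 3, Mgst3, Ptges and Ptgs2, lower than in mature VSN-like cells (all genes 14.5% and 22%), with a median of 2.82 against -0.35 over all genes, led by Alox5 (10.43 ± 0.25, adjusted p = 1.07e-11), which starts leukotriene synthesis, and the leukotriene C4 synthase Ltc4s (10.03 ± 0.24, adjusted p = 1.07e-11). Alox5 was at 255 and 240 CPM and Ltc4s at 1635 and 1514 CPM in tuft-like cells. Hpgds (5.67) and Ptgs1 (5.04), of prostaglandin synthesis, were higher too. Against immune cells, which also make eicosanoids, 2 of 10 were higher, Alox5 (3.51) and Ltc4s (2.67), and 5 were lower, among them Tbxas1 (-4.33) and Ptgs2 (-4.26). All genes stood at 18.6% and 27.4% there. Against other epithelial cells 3 were higher, Alox5 (8.99), Ltc4s (9.26) and Hpgds (3.75), and 3 lower (all genes 10.6% and 16.3%). Tbxas1 and Ptgs2, with 3 and 9 UMIs in tuft-like cells, passed the minimum of 10 UMIs through the compared groups alone. They were 2 of the 5 genes lower than in immune cells, and Ptgs2 was 1 of the 3 lower than in VSN-like cells. Against other epithelial cells 1 of the 3 lower genes passed it in the same way. Alox5ap, the partner of Alox5, was low, as given above.

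Of 10 tuft receptors and regulators 8 were higher and 1 lower than in mature VSN-like cells, where 14.5% and 22% of all genes were. Ascl2, a basic helix-loop-helix factor, was in 87.2% of tuft-like cells at 198 and 170.1 CPM (10.70 ± 0.31, adjusted p = 3.11e-11). With 6 UMIs in VSN-like cells, it passed the minimum of 10 UMIs through the tuft-like cells alone. Chil1 (6.76) and the signaling protein Vav1 (6.50) followed. Vil1, villin, the relative of Avil and itself a gut tuft cell gene, had no UMI in tuft-like cells and 92.5 and 96.2 CPM in mature VSN-like cells, at least 35.7-fold lower. Against immune cells 5 of 9 were higher, led by Ascl2 (7) and the actin bundler Espn (6.43), and 4 lower (all genes 18.6% and 27.4%), and against other epithelial cells 5 of 9 were higher and 2 lower (all genes 10.6% and 16.3%). Vil1 against VSN-like cells and 1 of the 4 lower genes against immune cells passed the minimum through the compared group alone.

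The partners of acetylcholine and IL-25 signaling were mostly at low counts. Of 6 tested acetylcholine genes 1 was higher and 2 lower than in mature VSN-like cells, where 14.5% and 22% of all genes were. Chrna10, a nicotinic receptor subunit, was higher (1.84 ± 0.19, adjusted p = 4.31e-06), at 94.6 and 82.9 CPM in 61.5% of tuft-like cells. Slc5a7, the choline transporter, had no UMI in tuft-like cells and was at least 1.34-fold lower. It passed the minimum through the VSN-like cells alone. Slc44a1, another choline transporter, was lower by 0.91 (adjusted p = 0.0337). Of 6 tested genes of the IL-25 circuit, the IL-4 and IL-13 receptor chains Il4ra (2.53 ± 0.26) and Il13ra1 (1.60 ± 0.21) were higher and Il33 (-4.65 ± 0.67) and Tslp were lower. Il13, a cytokine of the cells that answer IL-25 and named by its fold against immune cells, was counted in immune cells at 8.9 CPM and in no tuft-like or mature VSN-like cell. Against immune cells (all genes 18.6% higher and 27.4% lower) 1 of 3 acetylcholine genes was higher and 0 of 9 genes of the IL-25 circuit, of which 8 were lower, 6 of them past the minimum through the immune cells alone. Against other epithelial cells (all genes 10.6% and 16.3%) 1 of 9 acetylcholine genes was higher and 1 lower, and 2 of 6 genes of the IL-25 circuit were higher and 3 lower. These 3 passed the minimum through the other epithelial cells alone.

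The paralogs of the members were called in both directions. Of 23 tested paralogs 6 were higher and 10 lower in tuft-like than in mature VSN-like cells, where 14.5% and 22% of all genes were, and 6 of the 10 passed the minimum through the VSN-like cells alone. Their median was -0.74, against -0.35 over all genes tested. Gnai2, the alpha subunit of apical VSNs, stood at 458 and 444 CPM in tuft-like and 2167 and 2108 CPM in mature VSN-like cells, and Gnb1, the common beta subunit, at 222 and 234 against 1962 and 2341 CPM. Gnao1 was lower by 5.61 on the log2 scale. Plcb1 was higher by 7.02 ± 0.49 (adjusted p = 1.12e-07), at 51.0 and 29.8 CPM, and Pou2f2, the B cell relative of Pou2f3, had no UMI in tuft-like cells and was at least 5.94-fold lower. Against immune cells 6 of 25 paralogs were higher and 9 lower (all genes 18.6% and 27.4%), and against other epithelial cells 4 of 26 were higher and 5 lower (all genes 10.6% and 16.3%). Of the lower paralogs, 6 against immune and 3 against other epithelial cells passed the minimum through the compared group alone. Gnai2 and Gnb1 were named after their values had been seen.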

How the data were processed

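The deposited counts were UMIs per gene and barcode, made by the authors with Cell Ranger 4 on mm10 after bcl2fastq, from frozen and thawed cells of whole VNOs, with 10000 cells targeted per library. The submitters' notes also name Seurat 3.2.3. No source used here says if strand was taken into account. Cells were kept at 200 to 9000 genes and up to 10% of UMIs mitochondrial, over genes found in at least 3 barcodes. The study's methods state a 5% limit. It was exchanged for 10% after the data were seen, because no tuft-like cluster formed at 5%, where 10592 cells remained. Clustering was performed using Seurat 5.3.0 in R 4.3.3 (2000 variable genes, 30 components, resolution 0.8). Doublets were called with Scrublet in scanpy 1.11.5 (expected rate 8%, 429 cells, 2.29%), kept, and left out in an alternative. Cell classes were named from marker lists.

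UMIs were summed per library and group, genes with at least 10 UMIs over the compared sums were tested with edgeR 4.0.16 (quasi-likelihood test, TMM factors, Benjamini-Hochberg adjusted p under 0.05), and DESeq2 1.42.0 was an alternative. All members were reported in every group. Of each gene list, the genes past the threshold were named, or the 4 with the largest change, and for each member the 3 genes with the highest Jaccard index. The members and lists were chosen with earlier results of these data known. Shares of cells have exact Clopper-Pearson intervals (scipy 1.17.1) and were repeated with each cell thinned to 2000 or 4000 UMIs. Sums with the same replicate number came from the same library, and their deviations from the group means correlated at 0.223 to 0.605 in the 5 comparisons. On simulated counts for tuft-like against mature VSN-like cells (16293 genes), the test recovered 18% of genes changed 2-fold, 96% of those changed 4-fold and 100% of those changed 8-fold. It made 6 false calls. All genes were given the same set spread (dispersion 0.05), and no others differed between the groups. Only genes with at least 5 UMIs foreseen in the tuft-like sum of library 1 were changed, so the shares do not cover genes with fewer. The other alternatives were scaling, filters, a replicate block, resolution, members left in the clustering, and leaving out each library. Added after seeing the data were fits without cells of other classes that held 5 or more members and with the ionocyte-like cells put back.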

Additional observations from a re-analysis of the deposited data

Results flagged for a closer look

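Among the 5379 barcodes left out by the filters, 25 held UMIs of 3 or more members, against a limit of 3 that a count of 0 allows. They are data that no comparison used. All 25 were over 10% mitochondrial UMIs (10.0 to 59.8%, median 13.4%), 18 in library 1 and 7 in library 2, with a median of 3269 UMIs. Of these, 17 held 5 or more members.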

How the results depend on the processing

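The higher level of the members in tuft-like cells kept its direction in every alternative that could be fitted and its call in every one with a test (none is possible with 1 library left), except for the call of Il25 against immune cells at the 5% mitochondrial limit. Of the fold changes of members under alternatives 501 kept their call or, with a library left out, moved by no more than the spread. Another 12 gained a call, 9 lost it and 4 reversed. The other 55, all of them with a library left out (24 without replicate 1 and 31 without replicate 2), moved by more than the spread. A value called in neither fit could count among the 501 although its sign changed. With total counts this held for Ovol3 (-0.21) and Avil (-0.14) in immune against mature VSN-like cells. It also held for Avil (0.063) in the immature lineage against mature VSN-like cells. Compared with total counts, TMM moved the median of all genes from 0.34 to -0.28 for tuft-like against immune cells. With the 5% limit and the same classes, genes called fell from 6025 to 1455 (tuft-like against mature VSN-like cells), 6559 to 2239 (immune) and 4472 to 1221 (other epithelial), and cells with 3 or more members from 127 to 29, with 7 tuft-like cells left. With cells clustered anew at 5%, no tuft-like fit was possible. Requiring 2 or more members gave 293 cells, and leaving out a library gave 41 to 86. Immune against mature VSN-like cells had 2 members called, in place of 4, with no filter, edgeR's own filter or total counts. The 4 reversed values were Plcb2 with total counts (-0.063), Plcb2 without replicate 1 (-0.18, and 0.022 without replicate 2), Trpm5 without replicate 2 (-0.44) and Ovol3 without the cells of other classes that held 5 or more members (-2.02). Members not called there also changed sign without replicate 2: Gnat3 (-1.96), Gnb3 (-1.61), Ovol3 (-3.79) and Avil (-0.92). For the immature lineage against mature VSN-like cells, DESeq2 called 1 member in place of 2, and without replicate 1 Gnat3 (2.28), Gnb3 (1.28), Lrmp (2.69) and Avil (0.47), none of them called, changed sign. With library as a replicate block it called 4, adding Gnat3 (-4.35, adjusted p = 0.00699) and Gnb3 (-2.04, adjusted p = 0.0186), whose neuronal UMIs lay mostly in 1 cell of library 1. The block also called Gnat3 (1.93, adjusted p = 0.000611) and Gnb3 (1.45, adjusted p = 0.0106) in immune against mature VSN-like cells, and DESeq2 lost Trpm5 there (adjusted p = 0.0612). Shares of cells moved in 145 values and not in 581, among the former those thinned to fewer UMIs. With 2 libraries, members with few UMIs, above all Trpm5, Pou2f3, Il25 and Chat outside tuft-like cells, were limited by depth.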

Other observations

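The ionocyte-like cells, 10 cells of the same cluster with at least 3 Ascl3 UMIs, held Gnb3 in 3 of 10 cells (30%, exact 95% binomial interval 6.67 to 65.2%), at 47.1 CPM, and no UMI of the other 9 members. The 3 cells lay in both libraries, 1 of 4 in library 1 and 2 of 6 in library 2. In the unnamed cluster led by Ttll6, 22 of 561 cells held Plcb2 (3.92%, 2.47 to 5.88%), at 15.9 and 14.3 CPM by library, close to the level of the mature VSN-like cells with high UMI counts (15.8 and 13.9 CPM).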
